A study of Mus musculus with 12 samples.

Results

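The 10 genes described here are known as markers of the liver sinusoidal endothelium and were followed in liver RNA from 12 mice. They are Stab1, Stab2, Lyve1, Fcgr2b, Clec4g, Kdr, Pecam1, Icam2, Oit3 and Dnase1l3. They were picked by name from a list of liver endothelial markers, and all 10 were found by Ensembl identifier among the 16346 genes of the table of normalized counts. The mice were C57BL6J, 12 weeks old, and either control (Med13 fl/fl) or MED13-LKO, in which an albumin promoter drives the Cre recombinase that acts on the floxed Med13 alleles. MED13 is a subunit of the kinase module of the Mediator complex, which links transcription factors to RNA polymerase. Each genotype was sampled after a 16 h overnight fast, or after refeeding for 4 h with normal chow and drinking water holding 30% sucrose or 30% fructose, so that 6 groups of 2 libraries resulted. All 12 mice carried the floxed alleles. Because albumin is made by hepatocytes, the endothelial cells of MED13-LKO livers are not the cells in which the deletion is meant to occur, and RNA was taken from whole liver.

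Liver sinusoidal endothelial cells line the capillaries of the liver and differ from other endothelium in that they have open pores and no basement membrane. They take up waste macromolecules, immune complexes and modified lipoproteins from blood through scavenger and lectin receptors, and they depend on VEGF signaling for their specialized state. In RNA from whole tissue a lower marker level can mean fewer endothelial cells or less RNA per cell, and these cannot be told apart.

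Promoter windows were looked at because several of the 10 genes moved together. RefSeq promoter entries on GRCm38.p6 were found for 5 of the 10 genes (Stab1, Stab2, Kdr, Clec4g and Fcgr2b). The 250 bases before the annotated start were searched on both strands for exact letters. These were AGGAAG, which holds the GGAA core bound by ETS factors such as ERG and FLI1, AGATAA, bound by GATA factors, and ACAATG, bound by SOX factors. Other forms of these sites were not searched. Those of Stab1 and Clec4g are shown, as the windows with a motif that end at the start of the annotated gene. Capitals mark every match, CTTCCT being AGGAAG on the other strand. The window of Stab1 lies at chr14:31168642-31168891 and that of Clec4g at chr8:3720652-3720901, both on the minus strand.
Stab1: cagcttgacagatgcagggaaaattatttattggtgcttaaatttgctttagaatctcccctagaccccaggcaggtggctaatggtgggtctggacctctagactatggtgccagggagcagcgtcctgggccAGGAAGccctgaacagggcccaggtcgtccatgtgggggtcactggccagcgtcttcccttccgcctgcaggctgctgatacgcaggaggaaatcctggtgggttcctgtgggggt
Clec4g: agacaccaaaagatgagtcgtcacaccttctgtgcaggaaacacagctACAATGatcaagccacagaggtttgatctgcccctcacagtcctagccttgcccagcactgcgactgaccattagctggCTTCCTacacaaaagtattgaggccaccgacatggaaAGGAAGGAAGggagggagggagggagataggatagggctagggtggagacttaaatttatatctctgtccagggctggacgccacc
The letters AGGAAG were present 3 times in the Clec4g window, with an overlapping pair of copies. They occurred 1 time each in the windows of Stab1 and Stab2, and in neither the Kdr nor the Fcgr2b window. The shorter GGAA core, which both of those windows hold, was not counted. Across 32536 promoter windows of the same length, 29.6% held AGGAAG. The SOX letters occurred 1 time in Clec4g and in none of the other 4 windows (10.5% of all windows), and the GATA letters in none of the 5 (9.97% of all windows). These matches describe the sequence and are not evidence of binding.

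The targeted gene, Med13, showed no loss of RNA in libraries labelled MED13-LKO. Control livers held 674 and 796 normalized counts of it after the fast, 578 and 673 after sucrose, and 607 and 778 after fructose. Libraries labelled MED13-LKO held 808 and 899 after the fast, 646 and 717 after sucrose, and 681 and 1055 after fructose. The difference averaged over the diets was 0.22 on the log2 scale (SE 0.115, adjusted p = 0.201 by limma with Benjamini-Hochberg adjustment). Counts summed over the whole gene need not show the loss of a few exons, so the label is carried through as given. By Western blot, the paper reports that MED13 protein was almost absent from MED13-LKO liver. The paper also measured Med13 RNA by qRT-PCR in isolated hepatocytes of both genotypes, without giving the values in its text. Protein was not measured here. The sums of normalized counts per library, in units of 1e6, were 21.1 to 24.2 in controls and 17.3 to 18.7 in libraries labelled MED13-LKO. The number of reads behind each value is not recorded in the table. All 10 genes passed the filter of a mean of at least 10 normalized counts, which 12366 genes passed.

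The 10 genes spanned a wide range of levels. Divided by the length of the principal transcript, Clec4g, a C-type lectin receptor, stood highest at 733 ± 86 normalized counts per kb (SD, n = 6 control libraries). Fcgr2b, the inhibitory receptor for IgG immune complexes, followed at 254 ± 29.9 per kb, and Oit3, a secreted protein, at 190 ± 22.2 per kb. A middle group of Pecam1, Kdr, Lyve1, Dnase1l3, Stab2 and Stab1 ran from 141 ± 12.9 down to 88.7 ± 14.8 per kb, and Icam2 was lowest at 45.5 ± 9.84 per kb. The control ranges did not overlap between Clec4g and Fcgr2b, between Fcgr2b and Oit3, or between Stab1 and Icam2, while every other pair of neighbours in this order overlapped. Defining markers of the sinusoidal endothelium were therefore detected in every library. Subsequences of 31 bases shared with other genes made up at most 8.15% of any of the 10 genes (Fcgr2b), so that little of their signal could have been split between copies.

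**Figure D1:**
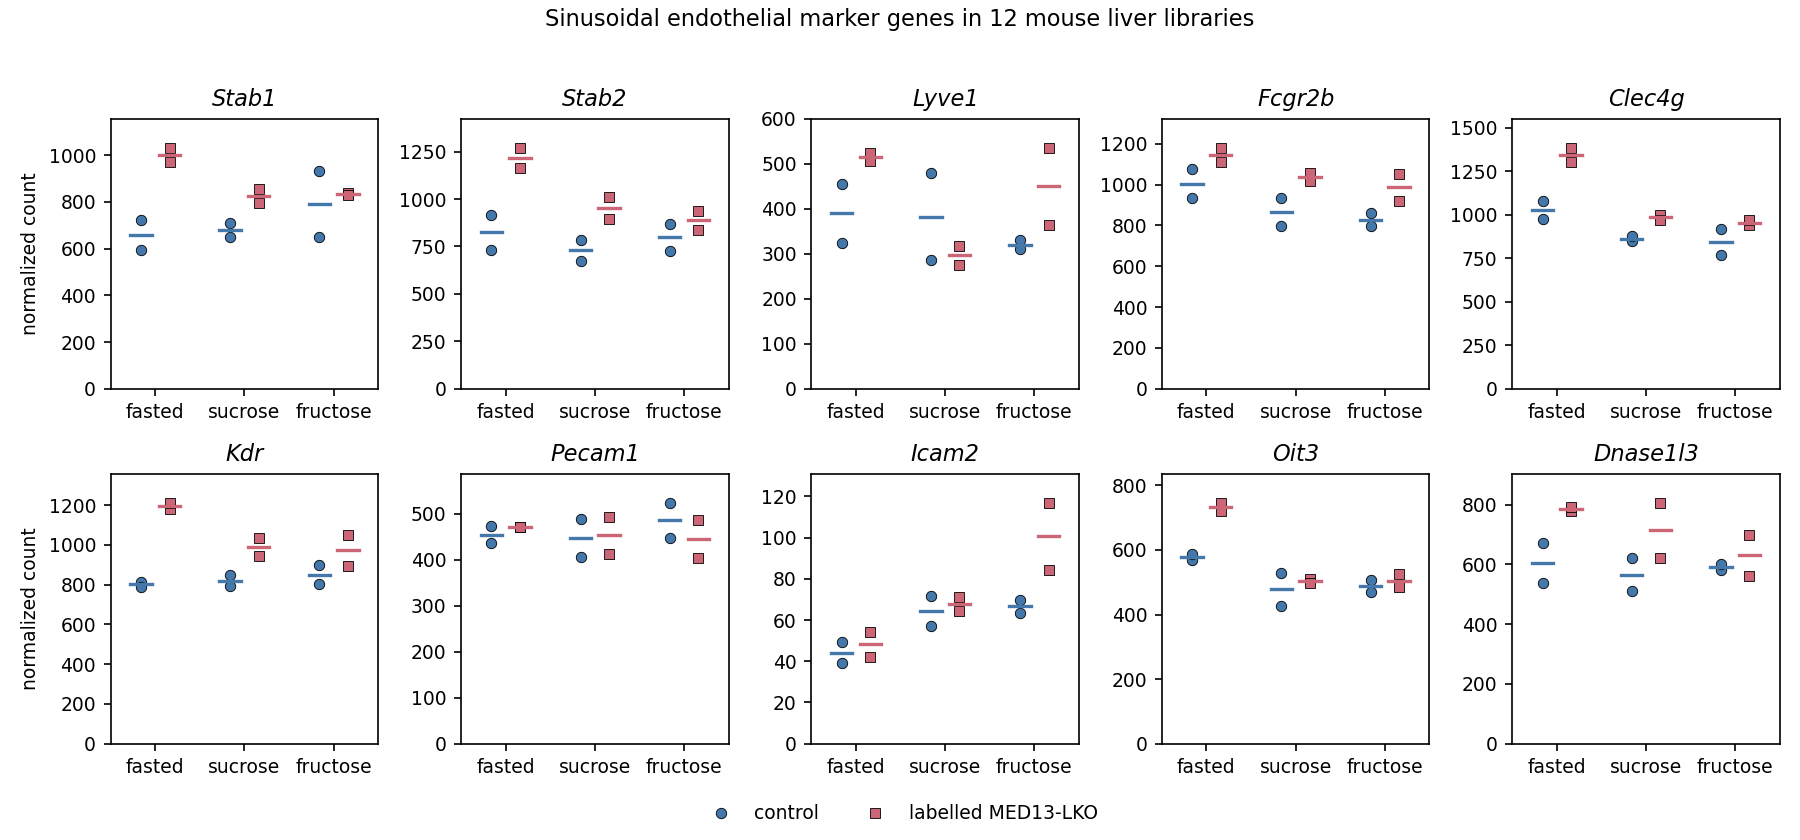
Normalized counts (y axis, linear from 0) of the 10 genes in each library by diet (x axis), circles for control and squares for libraries labelled MED13-LKO, with a line at each mean of 2. In the fasted state Kdr stood at 1178 and 1213 in libraries labelled MED13-LKO and at 814 and 790 in control, while Pecam1 stayed between 403 and 524 in all 12 libraries.

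The question of the genotype comparison is how loss of MED13 in hepatocytes alters the liver transcriptome. Averaged over the diets, 5 of the 10 genes were higher in the libraries labelled MED13-LKO and 0 were lower. The 5 were the receptors Stab1, Stab2, Fcgr2b and Clec4g and the VEGF receptor Kdr, with differences of 17.8% to 29.4%. Without control sucrose replicate 2 the count fell to 3. In the same comparison 12.1% of all genes tested were called higher and 13.2% lower, and the median log2 difference was 0.26 over the 10 genes against 0.006 over all genes. Of the 10, 9 had a positive difference. An unadjusted p under 0.05 in either direction was reached by 7 of the 10 and by 4571 of the 12366 genes tested. For no member did all 6 libraries labelled MED13-LKO lie above all 6 controls, which 3.92% of all genes tested did.

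The stabilins are large scavenger receptors that clear hyaluronan, matrix fragments and oxidized ligands. Stab2 (chr10:86841198-87008025, minus strand, 69 exons) stood at 918 and 733 normalized counts in fasted, 783 and 676 in sucrose-fed and 724 and 871 in fructose-fed controls. In libraries labelled MED13-LKO it stood at 1271 and 1163, 1010 and 897, and 939 and 839. All 6 exceeded the control mean and 4 exceeded the highest control. The averaged difference was 0.37 on the log2 scale (SE 0.081, 95% interval 0.19 to 0.55, adjusted p = 0.0083). Stab1 (chr14:31139013-31168641, minus strand, 69 exons) was measured in controls at 722 and 594 after fasting, 710 and 649 after sucrose, and 649 and 931 after fructose. Its values were 1032 and 971, 797 and 856, and 838 and 830 in libraries labelled MED13-LKO. With fructose the 2 libraries labelled MED13-LKO lay between the 2 controls, and in the other diets both lay above. The averaged difference was 0.33 (SE 0.0904, 95% interval 0.13 to 0.53, adjusted p = 0.0233), and it passed the threshold in 6 of the 12 fits that left out a library (adjusted p from 0.00194 to 0.0646).

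Among the other receptors, Clec4g and Fcgr2b separated the genotypes within each diet. Clec4g (chr8:3707064-3720651, minus strand, 9 exons) read 973 and 1077, 849 and 876, and 916 and 768 in controls after fasting, sucrose and fructose. The libraries labelled MED13-LKO read 1301 and 1386, 998 and 971, and 942 and 968, each above both controls of its diet, an order in all 3 diets that 8.27% of all genes tested also showed. The difference was 0.26 (SE 0.057, 95% interval 0.13 to 0.38, adjusted p = 0.00914). Fcgr2b (chr1:170958617-170976547, minus strand, 8 exons) read 936 and 1074, 933 and 795, and 795 and 863 in controls. Its libraries labelled MED13-LKO read 1112 and 1181, 1057 and 1018, and 920 and 1052, again above both controls of each diet. The difference was 0.24 (SE 0.0648, 95% interval 0.09 to 0.38, adjusted p = 0.0239), and the call was lost in 6 of the 12 fits that left out a library (adjusted p from 0.0174 to 0.0676). Lyve1 (chr7:110850607-110863239, minus strand, 6 exons), a hyaluronan receptor, varied more between mice. It read 324 and 456, 479 and 286, and 310 and 330 in controls and 524 and 507, 276 and 317, and 536 and 365 in libraries labelled MED13-LKO. The genotypes were apart after fasting and with fructose but interleaved with sucrose, and the averaged difference of 0.19 was not called (95% interval -0.14 to 0.52, adjusted p = 0.391).

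Kdr (chr5:75932827-75978458, minus strand, 30 exons), which encodes the main signaling receptor for VEGF-A, gave the smallest adjusted p of the 10 genes. The controls were close together at 814 and 790, 846 and 793, and 802 and 898. The libraries labelled MED13-LKO stood at 1178 and 1213, 1036 and 945, and 1050 and 896, so that 5 of 6 exceeded the highest control. The difference was 0.35 (SE 0.0587, 95% interval 0.22 to 0.48, adjusted p = 0.00221). The calls for Kdr, Stab2 and Clec4g held in all 12 fits that left out a library, with adjusted p up to 0.0303.

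Neither adhesion gene was called for genotype. Pecam1 (chr11:106654217-106750628, minus strand, 15 exons), the junctional protein CD31 shared by endothelium, platelets and leukocytes, read 435 and 472, 489 and 405, and 446 and 524 in controls. It read 470 and 470, 413 and 492, and 487 and 403 in libraries labelled MED13-LKO, within the control range but for 1 value. The difference was -0.02 with a 95% interval of -0.21 to 0.17 (adjusted p = 0.894). Icam2 (chr11:106377656-106388075, minus strand, 4 exons), a ligand of leukocyte integrins, read 49.4 and 38.9, 71.7 and 56.9, and 69.9 and 63.3 in controls and 42.2 and 54.2, 71.3 and 64.2, and 117 and 84.4 in libraries labelled MED13-LKO. Only the fructose-fed groups were apart, and the averaged difference of 0.26 was not called (95% interval -0.06 to 0.58, adjusted p = 0.221).

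For the secreted products no averaged difference was called. Dnase1l3 (chr14:7964533-7994573, minus strand, 8 exons), a nuclease that digests DNA in microparticles and chromatin, read 671 and 538, 622 and 510, and 582 and 600 in controls. The libraries labelled MED13-LKO read 778 and 791, 807 and 622, and 699 and 561, of which 4 exceeded the highest control. The difference was 0.27 (95% interval 0.05 to 0.48, adjusted p = 0.0673). Oit3 (chr10:59422958-59441778, minus strand, 9 exons) read 569 and 587, 530 and 428, and 470 and 507 in controls and 722 and 747, 511 and 499, and 526 and 484 in libraries labelled MED13-LKO. The genotypes were apart only after fasting, and the averaged difference was 0.16 (95% interval 0.01 to 0.30, adjusted p = 0.105).

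The median genotype difference of the 10 genes was 0.39 in the fasted state, 0.23 with sucrose and 0.17 with fructose. After fasting 4 of the 10 genes were called higher, against 4.12% of all genes tested, and all 10 had positive differences, with a median over all genes of 0.013. Stab1 was 52.7% higher (log2 0.61, SE 0.157, 95% interval 0.26 to 0.96, adjusted p = 0.0389), Kdr 49% (0.58, SE 0.102, 95% interval 0.35 to 0.80, adjusted p = 0.00816), Stab2 48.2% (0.57, SE 0.14, 95% interval 0.25 to 0.88, adjusted p = 0.0345) and Clec4g 31.1% (0.39, SE 0.0988, 95% interval 0.17 to 0.61, adjusted p = 0.037). Both fasted libraries labelled MED13-LKO lay above both fasted controls for 8 of the 10 genes, the exceptions being Pecam1 and Icam2, while 28.9% of all genes tested showed this order. The count of 4 fell to 0 without control fasted replicate 2 or without MED13-LKO fasted replicate 2. It was 1 without MED13-LKO fasted replicate 1 and 2 without control fasted replicate 1, without either library of control sucrose, MED13-LKO sucrose or MED13-LKO fructose, with the replicate block, or with only the compared groups fitted. The summed level of the 10 genes was 6360 and 6412 in the fasted controls and 8429 and 8482 in the fasted libraries labelled MED13-LKO.

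After feeding with either sugar, 0 of the 10 genes were called for genotype. With sucrose 2.7% of all genes tested were called higher, and the differences of the 10 genes ran from -0.32 (Lyve1) to 0.39 (Stab2). An unadjusted p under 0.05 was reached by 3 of the 10 and by 2642 of the 12366 genes tested. With fructose 3.74% of all genes tested were called higher, and the differences ran from -0.13 (Pecam1) to 0.57 (Icam2). There 1 of the 10 and 2871 of the 12366 genes tested had an unadjusted p under 0.05. With libraries rescaled to equal sums, which moved the median genotype difference of all genes to 0.28 with sucrose and 0.32 with fructose, 5 of the 10 were called higher with each sugar. How many of all genes were called in that scaling with each sugar is not given. A smaller difference in fed livers was not established, since the test of the difference between genotypes in their feeding response called 0 of the 10 genes (0.0404% of all genes tested in either direction). In that test 1 of the 10 and 1173 of the 12366 genes tested had an unadjusted p under 0.05. The estimate of that difference in response was lowest for Stab1 at -0.42 (95% interval -0.85 to 0.01, adjusted p = 0.541), and for Kdr it was -0.34 (95% interval -0.62 to -0.06, adjusted p = 0.416).

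**Figure D2:**
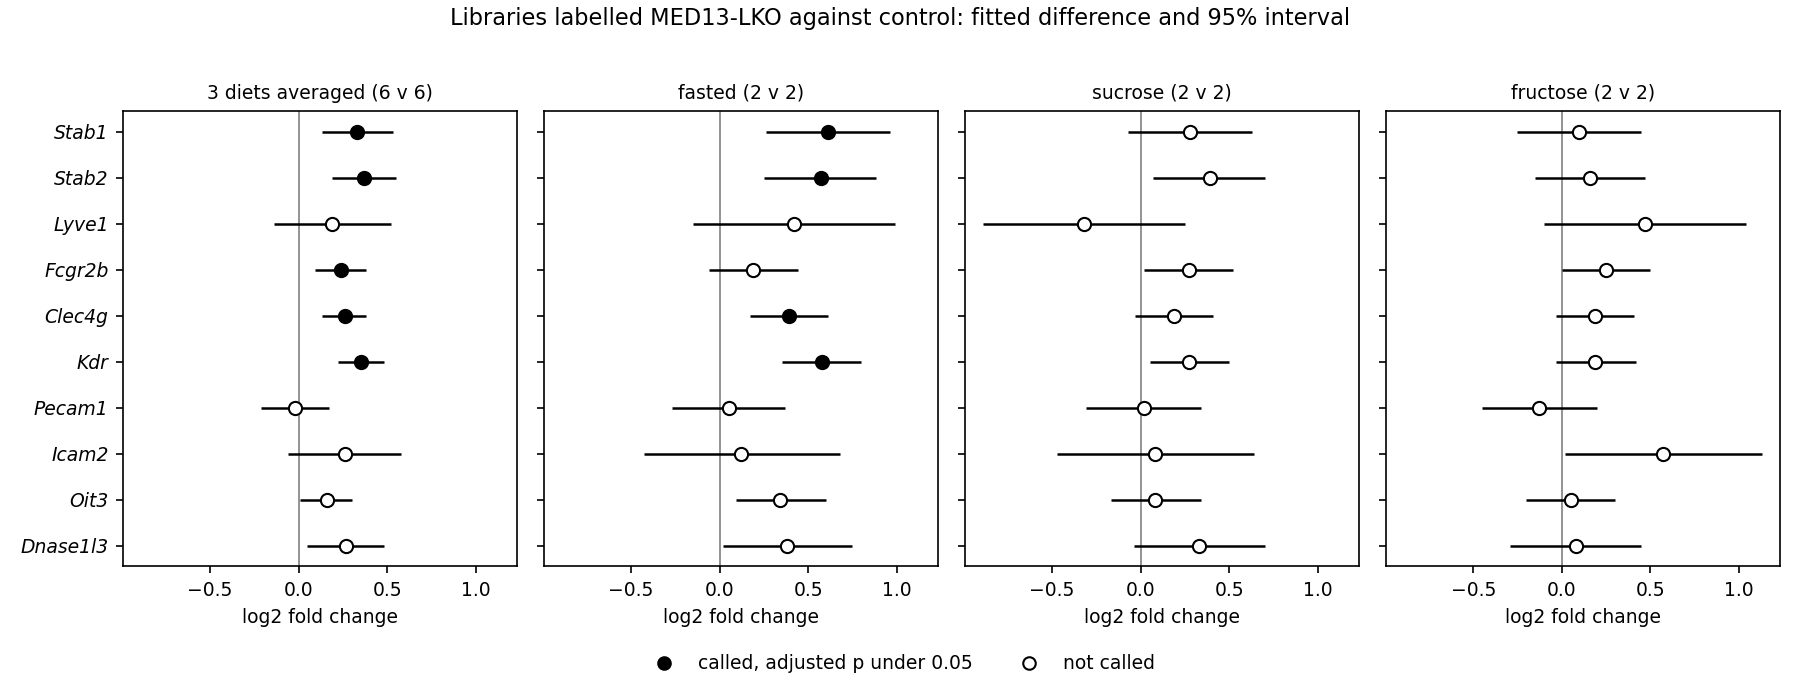
Fitted log2 fold change of libraries labelled MED13-LKO against control (x axis) for each gene (rows), with 95% intervals, for the 3 diets averaged and for each diet. Filled points have an adjusted p under 0.05, which 5 genes reached in the average, 4 in the fasted state and 0 with either sugar, and Pecam1 lies near 0 in the average at -0.02.

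Transcript length and library scaling moved with these differences, and length was looked at after the values of the 10 genes were seen. Genes with a principal transcript over 5 kb had a median genotype difference of 0.06 averaged over diets and 0.12 in the fasted state, against -0.06 and -0.11 for genes under 2 kb (12084 genes with a length). Among genes over 5 kb, 15.3% were called higher averaged over diets and 6.68% in the fasted state, against 9.24% and 2.64% of genes under 2 kb. Stab1, Stab2 and Kdr have principal transcripts of 7.999, 8.228 and 5.924 kb, and Clec4g one of 1.242 kb. The part of transcript length in the results was not tested. Rescaling the libraries to equal sums moved the median of all genes to 0.32 averaged over diets, with 94.6% of the calls higher in place of 47.7%. The median of the 10 genes then became 0.57, and all 10 were called higher. So were 7120 of the 12366 genes tested.

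Several other genes of the sinusoidal endothelium moved with the 10. Of 14 tested genes of this list, 6 were called higher and 1 lower averaged over diets, with a median of 0.24. They included Ehd3, an endocytic recycling protein, at 0.26 (adjusted p = 0.00408), Cd55, a complement regulator, at 0.33 (adjusted p = 0.0051) and Mrc1, the mannose receptor, at 0.23 (adjusted p = 0.00623). Ctsl, a lysosomal protease, was lower by -0.51 (adjusted p = 0.000267). Ctsl, Mrc1 and Cd55 are all expressed in other cell types as well. The summed level of the 15 listed genes, of which Ctsl had the highest counts, ran from 13360 to 19901 in controls. In libraries labelled MED13-LKO it ran from 12368 to 16337. Of 28 pan-endothelial genes 4 were called higher, a share near that of all genes, and 0 lower. The 4 were Cdh5 (VE-cadherin) at 0.21, Ptprb at 0.20, Adgrf5 at 0.51 and the transcription factor gene Sox7 at 0.85, with a list median of 0.09. Large-vessel genes gave 1 higher and 2 lower of 10 (median -0.10), and the list of endothelial zonation signals gave 0 higher and 1 lower of 12 (median -0.07).

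The pathway of Kdr was mixed. Of 11 tested VEGF and angiopoietin ligands, receptors and partners, 2 were called higher and 4 lower averaged over diets. Vegfb, a ligand of VEGFR1, was higher by 0.63 (adjusted p = 0.00314) and Flt4, which encodes VEGFR3, by 0.34 (adjusted p = 0.00667). The co-receptor Nrp2 was lower by -0.80 (adjusted p = 0.00016) and the TIE2 ligand Angpt1 by -1.50 (adjusted p = 0.00448). Angpt1 was a low gene, at 21.4 to 28.9 normalized counts in controls and 4.23 to 12.9 in libraries labelled MED13-LKO. Vegfa, the ligand of KDR that the rule did not name and that was chosen after its values were seen, was lower by -0.27 (adjusted p = 0.0134). Nrp1, the other called gene of the list that the rule did not name, was lower by -0.62 (adjusted p = 0.0101).

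Markers of other cell types also moved with genotype. All 12 Kupffer cell markers had positive differences (median 0.16), and 3 were called higher, the scavenger receptor gene Marco at 1.22, Cd5l at 0.63 and Folr2 at 0.51. Their summed level ran from 5089 to 7209 in controls and from 6470 to 8615 in libraries labelled MED13-LKO. Stellate cell and matrix markers gave 0 higher and 3 lower of 12, with sums of 8490 to 9812 and 8040 to 9080. Hepatocyte markers gave 0 higher and 7 lower of 10 (median -0.44), and their sums did not overlap, at 2989942 to 3691780 in controls and 2313777 to 2700675 in libraries labelled MED13-LKO. Red blood cell genes gave 4 lower of 5, with sums of 8905 to 14895 and 5734 to 11173. Neutrophil markers were near 0 throughout, with sums of 4.05 to 23.3 and 19.4 to 64.2, and 2 of their 4 genes were at 0 in all 6 controls. Lymphocyte markers summed to 189 to 272 and 243 to 358, and cholangiocyte markers to 666 to 876 and 534 to 849. The part of these cell types in the differences of the 10 genes was not tested.

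**Figure D3:**
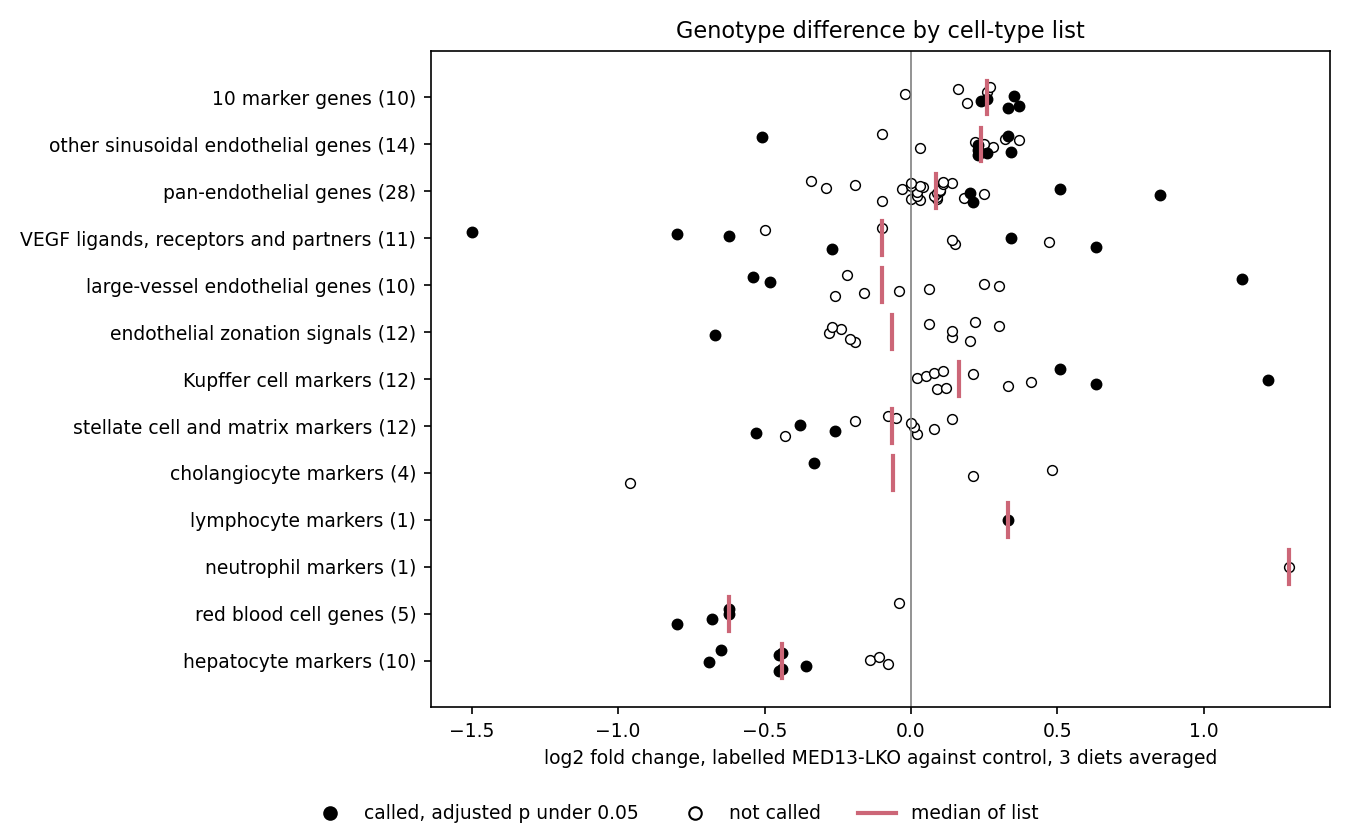
Fitted log2 fold change between genotypes averaged over diets (x axis) for the tested genes of each list (rows, number in brackets), filled where the adjusted p was under 0.05, with a red line at each median. The 10 genes (median 0.26) and the other sinusoidal genes (median 0.24) lie mostly right of 0, and the hepatocyte markers (median -0.44) all lie left of it.

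Between fasted and sugar-fed livers 3 of the 10 genes were called, of which Clec4g was also called for genotype. The sugar-fed mice also ate chow, and no library came from mice refed with chow and plain water. In the paper the fasted and fed mice were killed at different times of day. Sugar, refeeding and time of day cannot be told apart here. In the comparison of the 8 sugar-fed with the 4 fasted libraries, 1 of the 10 was called higher and 2 lower, a number near what 10.7% and 11.0% of all genes tested would give, with a median of -0.18 against -0.006. Icam2 rose by 58.4% (log2 0.66, SE 0.153, 95% interval 0.32 to 1.0, adjusted p = 0.0133). Its 4 fasted values, given above, ended at 54.2, and all 8 fed values began at 56.9, a separation that 4.01% of all genes tested showed. This call was lost without control fasted replicate 2 or MED13-LKO fasted replicate 1, with adjusted p between 0.0134 and 0.0617 over the 12 fits that left out a library. Oit3 fell by 0.40 on the log2 scale (SE 0.0691, adjusted p = 0.00309), all 8 fed libraries lying below the lowest fasted value of 569, as for 4.79% of all genes tested. Clec4g fell by 0.37 on the log2 scale (SE 0.0605, adjusted p = 0.00241), with 7 of 8 fed libraries below the lowest fasted value of 973. Fcgr2b stood at the threshold with a difference of -0.21 (95% interval -0.37 to -0.06, adjusted p = 0.05, just above it), and Stab2 was close at -0.26 (95% interval -0.45 to -0.06, adjusted p = 0.0587). Without control fructose replicate 2 both were called, which made 4 lower. For Stab1, Kdr and Pecam1 the differences were -0.06, -0.12 and -0.02, with 95% intervals of -0.27 to 0.15, -0.25 to 0.02 and -0.22 to 0.18.

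Within the genotypes, calls came from the libraries labelled MED13-LKO. In controls 0 of the 10 genes were called for sucrose and 0 for fructose, against 8.57% and 5.6% of all genes tested in either direction. An unadjusted p under 0.05 was reached by 2 and 3 of the 10, and by 3039 and 2829 of the 12366 genes tested. In libraries labelled MED13-LKO, Clec4g (-0.45, adjusted p = 0.0289) and Oit3 (-0.54, adjusted p = 0.0235) were lower after refeeding with sucrose than after the fast. In that comparison 3.48% of all genes tested were called lower. The same pair was lower after refeeding with fructose (Clec4g -0.49, adjusted p = 0.0201, and Oit3 -0.54, adjusted p = 0.0229), where 3.58% were called lower. Icam2 was higher after refeeding with fructose by 1.04 (adjusted p = 0.0375), where 2.94% were called higher. In controls the corresponding differences were -0.25 and -0.29 for Clec4g, -0.28 and -0.24 for Oit3, and 0.53 and 0.59 for Icam2, all in the same direction, and the interaction was called for none of them (adjusted p 0.639, 0.569 and 0.868). These calls within MED13-LKO rested on 2 libraries a group, and each was lost without MED13-LKO fasted replicate 1 or 2. The 2 sucrose calls were also lost without MED13-LKO sucrose replicate 1 or 2, the Icam2 call without any of the 6 libraries labelled MED13-LKO, the fructose call of Clec4g without MED13-LKO fructose replicate 1 or 2 and that of Oit3 without MED13-LKO fructose replicate 2. The genotype and feeding comparisons share the fasted libraries.

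**Figure D4:**
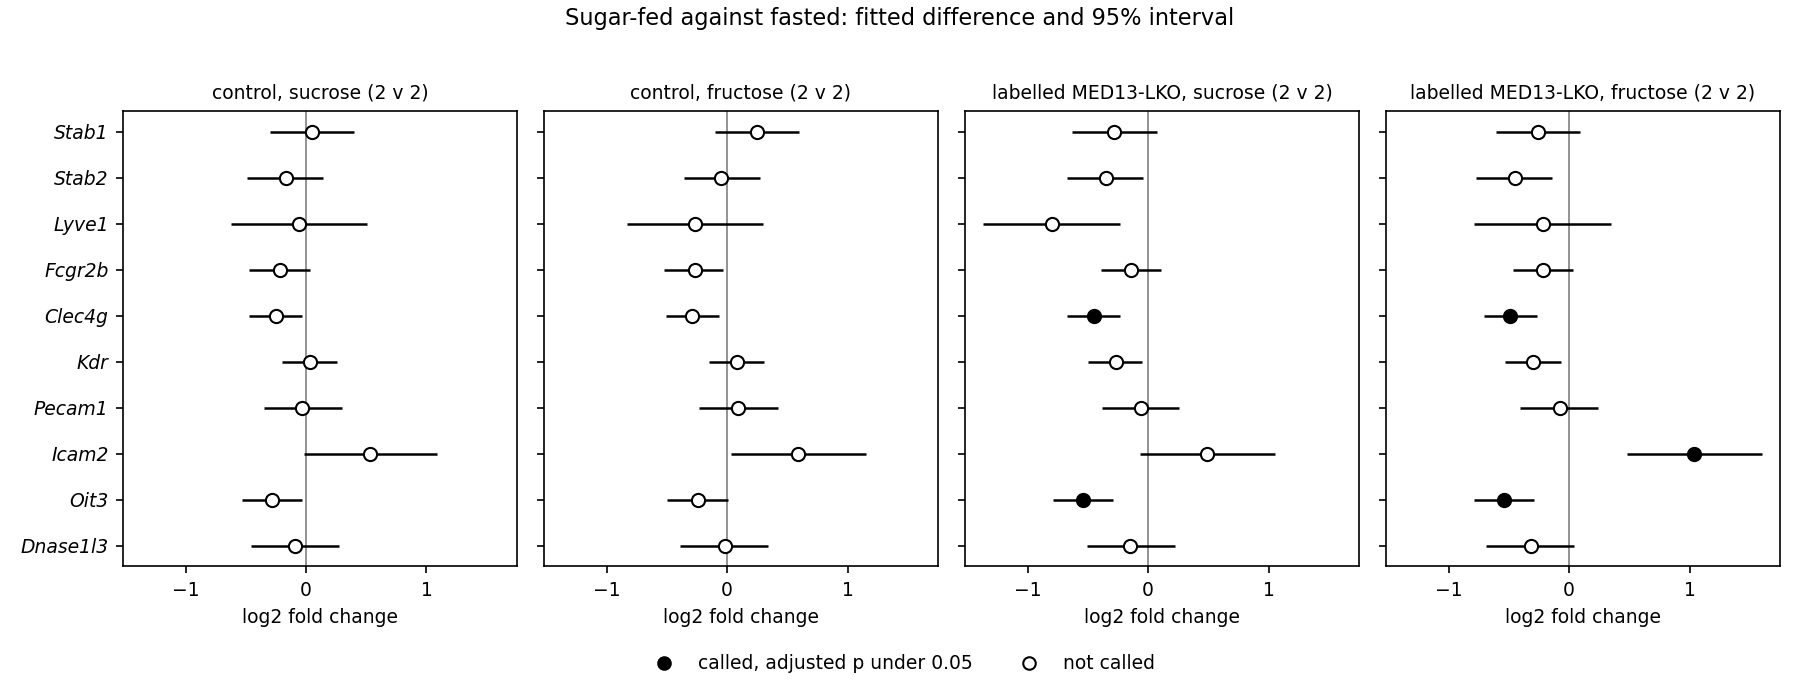
Fitted log2 fold change of each sugar against fasting (x axis) for each gene (rows), with 95% intervals, in controls and in libraries labelled MED13-LKO. Filled points have an adjusted p under 0.05, and Icam2 lies right of 0 and Clec4g and Oit3 left of 0 in each of the 4 panels.

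The sugars themselves did not separate the 10 genes. In the comparison of fructose with sucrose 0 of the 10 were called (0.0404% of all genes tested in either direction). An unadjusted p under 0.05 was reached by 0 of the 10 and by 1172 of the 12366 genes tested. The differences ran from -0.07 (Fcgr2b) to 0.30 (Icam2), with the widest interval for Lyve1 at -0.22 to 0.59.

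On feeding 21.8% of all genes tested were called in either direction. Of 14 other sinusoidal genes 1 was called higher and 5 lower (median -0.21). The higher gene was Gata4, a transcription factor gene also expressed in other liver cells, at 1.17 (adjusted p = 5.1e-05), and the lower ones included Ehd3 at -0.59 (adjusted p = 7.9e-05), Mrc1 at -0.39 (adjusted p = 0.000698) and Ctsl at -0.43 (adjusted p = 0.00135). Among 28 pan-endothelial genes 2 were called higher and 3 lower, a share no larger than that of all genes, and the same held for the zonation, VEGF and large-vessel lists. S1pr1, the receptor for sphingosine 1-phosphate, was higher by 0.60 (adjusted p = 0.000123) and the tight junction gene Cldn5 by 0.81 (adjusted p = 0.000516), while Robo4 was lower by -0.71 (adjusted p = 0.00399) and Esam by -0.40 (adjusted p = 0.0165). Of the zonation signals, Bmp2 and Bmp6, endothelial inducers of hepcidin, were lower by -0.62 and -0.55 (adjusted p = 0.00146 and 0.0126), and 0 of 12 were higher. In the VEGF list Vegfa was higher by 0.36 (adjusted p = 0.00582) and Nrp2 by 0.35 (adjusted p = 0.0235), with 0 of 11 lower. Large-vessel genes gave 1 lower of 10, Ly6c1 at -1.16, a low gene at 2.09 to 27.9 normalized counts over the 12 libraries. The Kupffer cell list gave 1 lower of 12, Cd163 at -0.97, and the hepatocyte list 2 lower of 10, Cps1 at -0.45 and Hnf4a at -0.29. Red blood cell genes gave 4 lower of 5 (median -0.55), and stellate cell and matrix markers 2 higher and 1 lower of 12. The part of these cell types in the feeding differences of the 10 genes was not tested.

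The 10 genes varied together across libraries only in part. Over the 12 libraries, 38 of 45 pairs had a positive Pearson correlation of log2 values, with a median r of 0.49 and a range of -0.49 (Icam2 with Oit3) to 0.92 (Stab2 with Kdr). These values include the group differences described above and are given as a description. In the deviations of each library from its group mean, 33 of 45 pairs were positive, with a median of 0.29. Within groups Clec4g ran against the large receptors, with r of -0.98 with Stab1 and -0.80 with Stab2, and its median r with the other 9 genes was -0.33. With 2 libraries in each group, the deviations within a group mirror each other, so that 6 values lie behind each such r. Between the libraries of a group, deviations of all genes correlated with transcript length by a Spearman rho of up to 0.145 in size, which was reached in the fructose-fed controls.

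**Figure D5:**
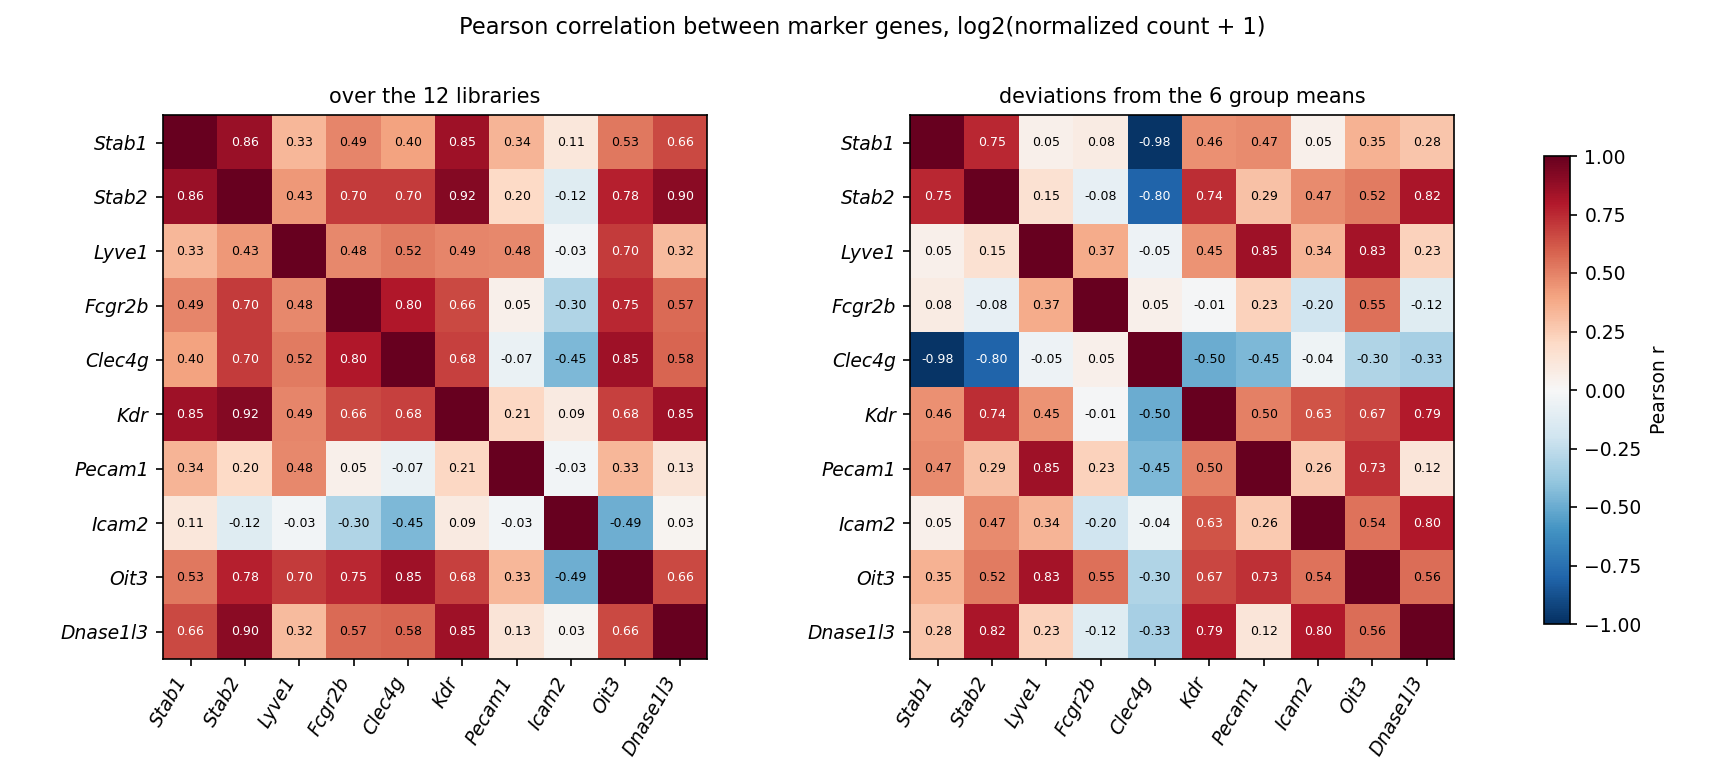
Pearson r (color and printed value) between the log2 levels of each pair of genes, over the 12 libraries (left) and for deviations from the 6 group means (right). Stab2 and Kdr reach 0.92 on the left, and Clec4g with Stab1 falls to -0.98 on the right.

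Genes outside the list with the closest pattern were ranked by Pearson r with the mean centred log2 level of the 10 genes. Over the 12 libraries the 10 closest were Cdh5 (r = 0.961), Flt4 (0.937), Pcdh17 (0.935), Itpr2 (0.933), Krt23 (0.931), Ogdh (0.931), Chkb (0.926), Pik3c2a (0.923), Tmem82 (0.915) and Ptprb (0.915), where the median over genes was 0.021 and the 95th percentile 0.701. Cdh5, Flt4 and Ptprb are endothelial genes of the lists above. For the deviations from the group means, the closest were Galnt15 (0.988), Larp1 (0.979), Lrp1 (0.958), Itpripl2 (0.956), Pltp (0.950), Rttn (0.948), Man2b1 (0.946), Fzd4 (0.943), Akr7a5 (0.942) and Fbxl20 (0.941), with a 95th percentile of 0.698. No gene was in both sets of 10.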

How the data were processed

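Liver RNA was sequenced in 12 libraries, and groups were taken from the sample titles. The authors deposited a signal table of normalized counts, made per the labels with Trim Galore 0.6.5, kallisto 0.46.0 and DESeq2 1.24.0 on mm10. These values are not whole counts, so tests that need counts were not run, and the read depth behind them is unknown. Identifiers were matched to symbols (16212 of 16346). The main tests used log2(normalized count + 1) of 12366 genes, those whose mean was 10 or more. A linear model with the 6 groups, all 12 libraries in 1 fit, was fitted in limma 3.58.1 (R 4.3.3) with eBayes and a mean trend. P-values were two-sided and adjusted by Benjamini-Hochberg over all 12366 genes, with calls made at an adjusted p under 0.05. The fit was tested on simulated data. Fold changes are on the log2(value + 1) scale, which understates changes of low genes.

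The 10 genes, the lists and the tests were chosen with earlier results of these data known. The text names the 10 genes, up to 4 called genes of lowest p per list, and the 10 genes of closest pattern on each of 2 measures. Vegfa and Nrp1 were named for genotype in addition. The lists of other cell types came from textbook markers. Positions and lengths come from GENCODE M21 on GRCm38 and promoter windows from RefSeq. Replicates are separate samples by their titles, and nothing states separate cages or litters, so p-values measure the spread between these samples. Same-numbered libraries of different groups did not deviate together (correlations of their deviations from -0.142 to 0.078), so the replicate number was not used as a block. Alternatives were pseudocounts of 0.1 and 10, no filter, rescaling to equal 75th percentiles, to equal sums or by medians of ratios, a replicate block, fits of the compared groups only, and leaving out each library.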

Additional observations from a re-analysis of the deposited data

How the results depend on the processing

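Over 20 alternative settings, 1160 of 1290 recomputed values of single genes kept their direction and their side of the threshold, 69 lost a call, 29 gained one and 32 changed sign. With equal sums 10 genes were called higher for genotype averaged over diets, 8 in the fasted state, 5 with sucrose and 5 with fructose, the medians of the 10 genes became 0.57 and 0.73, and 1 gene was lower with each sugar within MED13-LKO. In that scaling all genes shifted by 0.32 averaged over diets and 0.35 in the fasted state. There 7120 and 3923 of the 12366 genes tested were called higher. The replicate block gave 6 genes for genotype averaged over diets and 2 in the fasted state, and it changed no other count by over 1.5 times. Since same-numbered libraries did not deviate together, the number is not taken to pair them. Fitting only the compared groups gave 2 higher in the fasted state, 0 higher and 1 lower for fructose within MED13-LKO, and no filter on low values gave 0 higher there. Leaving out each library gave 3 (without control sucrose replicate 2) to 6 higher for genotype averaged over diets, 0 to 4 in the fasted state, 0 to 1 higher and 2 to 4 lower for sugar-fed against fasted, 0 to 2 lower for sucrose and for fructose within MED13-LKO, and 0 to 1 higher for fructose within MED13-LKO. Where a group was left with 1 library, that library was assumed to vary like the other groups.

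The sign changes concerned differences that were not called in the main fit, the largest being Lyve1 with sucrose at -0.32. With equal sums the averaged genotype difference of Pecam1 changed sign and was then called. It is counted among the sign changes and not among the calls gained. For genotype averaged over diets Pecam1 was 0.00 with equal 75th percentiles, 0.30 with equal sums and -0.06 to 0.03 without 1 library. For sugar-fed against fasted it was 0.01, 0.09 and -0.05 to 0.02, and Stab1 was 0.05 with equal sums and -0.13 to 0.01 without 1 library. With fructose Pecam1 was 0.20 with equal sums, and without 1 library the genotype differences ran from -0.26 to 0.01 for Pecam1, -0.16 to 0.36 for Stab1, -0.01 to 0.11 for Oit3 and -0.08 to 0.24 for Dnase1l3. In the fasted state they ran from -0.01 to 0.11 for Pecam1 and -0.05 to 0.30 for Icam2. With sucrose they ran from -0.12 to 0.15 for Pecam1, -0.70 to 0.05 for Lyve1, -0.08 to 0.25 for Icam2 and -0.07 to 0.24 for Oit3. The interaction of Fcgr2b ran from -0.03 to 0.16. With 2 libraries a group, differences within a diet carry wide intervals, and the unknown read depth limits what can be said of Icam2, the lowest of the 10 genes.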
